A study of Mus musculus with 2 samples.

Results

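RNA decay genes in this report are the protein-coding genes of the RNA exosome, of the deadenylases, of decapping and 5′-3′ decay and of nonsense-mediated decay, picked by symbol from the Exosc, Cnot, Dcp, Xrn, Upf, Smg, Dis3 and Pan families. The rule gave 41 of the 21318 protein-coding genes used. ELF1, an ETS family transcription factor that binds DNA around a GGAA core, was mapped by ChIP-seq, which sequences DNA brought down with an antibody. The cells were CH12.LX, an immortalized B-cell lymphoma line of the mouse strain B10.H-2aH-4bp/Wts. The group ELF1 ChIP held 2 biological replicates of this line, with no second treatment, genotype or time, so every comparison below is between genes, between peak lists or between the replicates. Because both replicates come from the same line, they give no view of other B cells. The peak lists hold no expression values, so the B cell label could not be checked against marker transcripts.

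On mm10 there were 29086 optimal peaks, kept by how well replicates agreed, and 300000 relaxed entries for each replicate. A list of both replicates on the mm9 build held 18804 peaks. Signal below is column 7 of each list, the authors' value for a peak on a scale that is not given and that differs between lists. Sequencing depth is unknown. Each interval reflects counting error alone.

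Messenger RNA decay usually begins when the poly(A) tail is shortened, first by PAN2-PAN3 and then by CCR4-NOT. The body is then degraded from the 5′ side after DCP2 removes the cap and XRN1 digests the transcript, or from the 3′ side by the exosome. Nonsense-mediated decay sends transcripts with premature stop codons into the same machinery through UPF1 and its kinase SMG1. The exosome also processes ribosomal RNA and clears short-lived nuclear transcripts, and in activated B cells it is known to act with the DNA deaminase AID at transcribed immunoglobulin genes.

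Bound here means that the summit of an optimal peak was no more than 1 kb from the RefSeq 5′ end of the gene. ELF1 was bound at 35 of the 41 decay genes (85.4%, 95% exact interval 70.8% to 94.4%), while 39.5% of all protein-coding genes were bound. The RNA exosome was bound at 12 of 12 genes (exact interval 73.5% to 100%) and decapping and 5′-3′ decay at 5 of 5 (47.8% to 100%). CCR4-NOT was bound at 9 of 11 genes (48.2% to 97.7%), nonsense-mediated decay at 8 of 10 (44.4% to 97.5%) and PAN2-PAN3 at 1 of 2. Dis3l2, a nuclease related to Dis3 that works without the exosome, had no peak at its 5′ end. The intervals of the complexes overlapped, so these counts do not set one complex apart from another. The genes and their grouping were chosen with earlier results known, and no test was made over them.

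On the mm9 list, with all transcript starts of GENCODE M1, 37 of the 40 decay genes found in that annotation were bound (92.5%, exact interval 79.6% to 98.4%), while 36.8% of all protein-coding genes were. Exosc6 was not matched there. The exosome stood at 10 of 11 genes, CCR4-NOT at 10 of 11, nonsense-mediated decay at 9 of 10, decapping and 5′-3′ decay at 5 of 5, PAN2-PAN3 at 2 of 2, and Dis3l2 was bound. Both lists called 33 genes, neither called Cnot7 and Smg9, the optimal list alone called Dis3l, and the mm9 list alone called Dis3l2, Cnot8, Pan3 and Smg1.

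**Figure D1:**
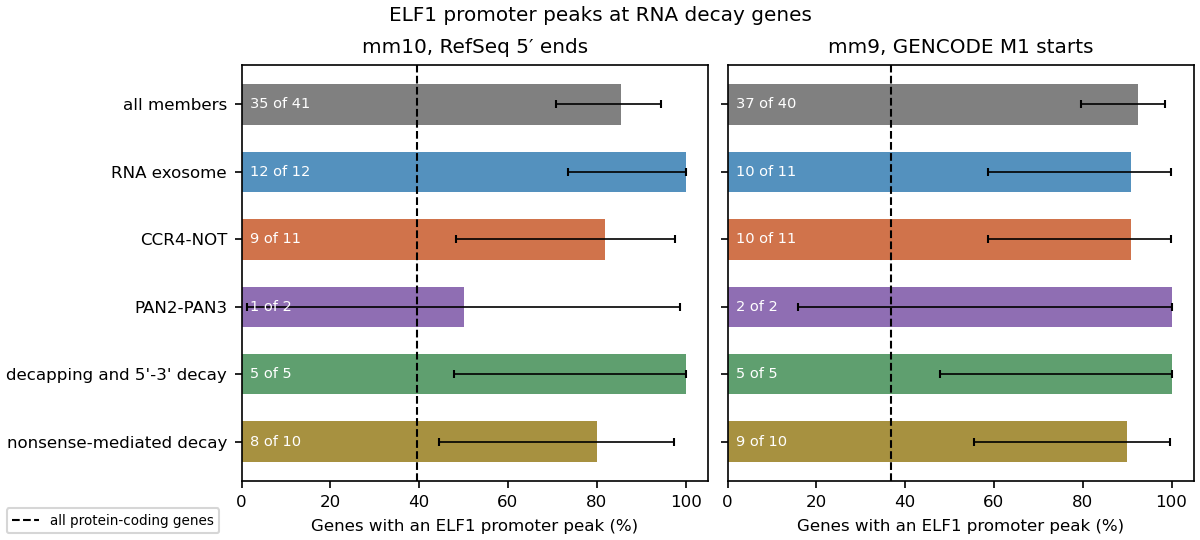
Share of genes with an ELF1 promoter peak (percent) for all decay genes and by complex, on mm10 with RefSeq 5′ ends (left) and on mm9 with GENCODE M1 starts (right); Dis3l2 is counted only in the top bar. Bars are shares with 95% exact binomial intervals, numbers in the bars are counts, and the dashed lines mark all protein-coding genes at 39.5% and 36.8%; the top bars stand at 85.4% and 92.5%.

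The median signal of bound decay genes was 132 and that of all 8413 bound genes 97.1. Of the 35 bound decay genes, 23 lay above that median, 9 above the upper quartile of all bound genes (201) and 3 below the lower quartile (47.0). By complex the median was 218 for decapping and 5′-3′ decay, 173 for the exosome, 100.7 for CCR4-NOT and 84.7 for nonsense-mediated decay. Ranges overlapped widely, from 46.7 to 352 in decapping and 5′-3′ decay, 22.3 to 344 in the exosome, 29.4 to 341 in CCR4-NOT and 48.3 to 184 in nonsense-mediated decay. Ranked among all bound genes, the medians stood at the 77.7th, 70.3rd, 51.4th and 44.5th percentile in the same order of complexes. On the mm9 list the order was the same, at the 77.0th, 65.3rd, 51.2nd and 48.9th percentile. No gene of nonsense-mediated decay reached the upper quartile of the optimal list, which 5 exosome genes, 3 genes of decapping and 5′-3′ decay and 1 CCR4-NOT gene did.

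**Figure D2:**
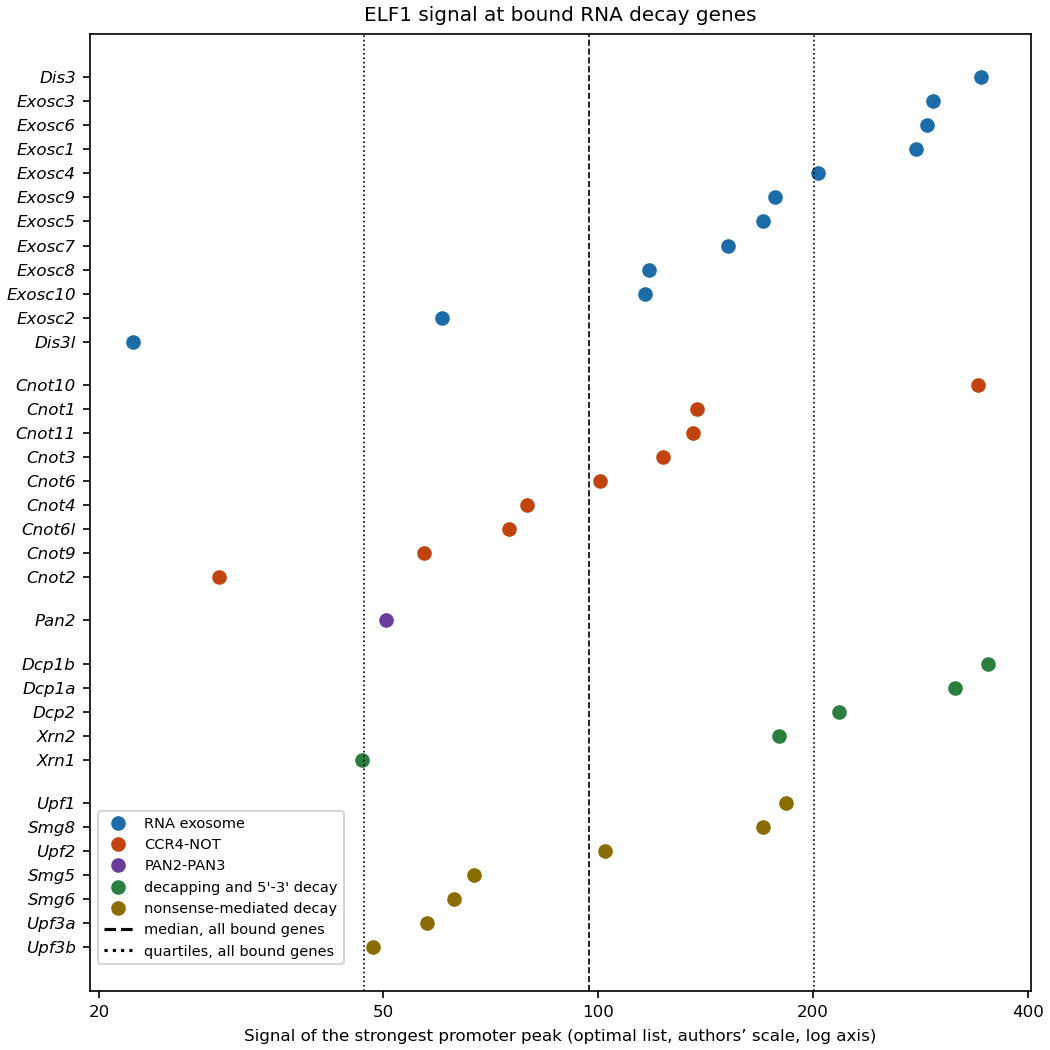
Signal of the strongest promoter peak (authors' scale, log axis) for 34 of the 35 bound decay genes, by complex. Dashed and dotted lines mark the median (97.1) and the quartiles (47.0 and 201) of all bound genes; nonsense-mediated decay ends at 184, and single exosome, CCR4-NOT and decapping genes lie above 340.

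Windows are printed for the gene of highest optimal-list signal in each complex, to show the bases under these peaks. On the mm9 list Smg8 (272) stood above Upf1 (266) and Pan3 (222) above Pan2 (49.98), so these 2 windows are not the strongest mm9 sites of their complexes. Each covers the summit and 50 bases of mm9 on either side, on the strand of the gene, 5′ to 3′, with GGAA or its complement TTCC in capitals. The windows are chr14:99499064-99499164 (minus strand) for Dis3, chr9:114549331-114549431 (minus) for Cnot10, chr10:127740179-127740279 (plus) for Pan2, chr6:119125176-119125276 (plus) for Dcp1b and chr8:72877235-72877335 (minus) for Upf1.
Dis3: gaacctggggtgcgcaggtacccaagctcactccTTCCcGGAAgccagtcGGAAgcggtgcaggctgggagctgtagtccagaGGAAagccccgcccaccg
Cnot10: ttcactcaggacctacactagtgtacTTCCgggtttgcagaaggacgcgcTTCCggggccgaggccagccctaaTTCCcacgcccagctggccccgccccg
Pan2: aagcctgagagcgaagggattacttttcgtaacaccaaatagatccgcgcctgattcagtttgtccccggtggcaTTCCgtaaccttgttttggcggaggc
Dcp1b: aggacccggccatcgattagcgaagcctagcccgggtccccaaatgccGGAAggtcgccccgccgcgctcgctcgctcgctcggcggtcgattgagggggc
Upf1: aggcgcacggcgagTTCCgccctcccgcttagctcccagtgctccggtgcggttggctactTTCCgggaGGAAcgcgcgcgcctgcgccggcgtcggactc
The Dis3 window held 4 GGAA words on both strands together and Cnot10 and Upf1 3 each, while Pan2, of far lower signal, and Dcp1b held 1. The longer ETS word CCGGAAG was present once in Dis3 and Dcp1b, 2 times in Cnot10, and in neither Pan2 nor Upf1.

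Across the mm9 peaks of the decay genes, words were searched within 50 bp of the summit on both strands. CCGGAAG was found at 9 of 37 decay gene peaks (24.3%) and at 26.8% of all 8790 promoter peaks. The shorter CCGGAA, which CCGGAAG contains, was found at 13 (35.1%) and at 37.4% of all promoter peaks, and the core GGAA, contained in both, at 32 (86.5%) and at 90.6%. Each word's share at the 37 decay gene peaks was close to that at all promoter peaks. Within 50 bp, and likewise within 25 bp, it was slightly lower, too little to set these peaks apart. Within 100 bp CCGGAAG stood at 32.4% of decay gene peaks and 30.0% of all promoter peaks, and GGAA at 100% and 97.1%. CCGGAA stayed slightly lower there, at 40.5% and 42.8%, so the order depended on the word and the window. The exosome had CCGGAAG at 4 of 10 peaks, at Dis3, Exosc3, Exosc4 and Exosc10. The others with the word were Dis3l2, Cnot3, Cnot10, Dcp1b and Smg8, and the nearest word was centred 1 to 33 bp from the summit. Peaks with CCGGAAG had a median mm9 signal of 419 (range 151 to 768) and those without it 162 (44.3 to 563). All promoter peaks showed medians of 237 with the word and 84.8 without it, a difference in the same direction. High signal without the word also occurred, as at Dcp1a (563), which had 2 GGAA words, and at Exosc1 (412), which had none within 50 bp.

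All 12 genes of the RNA exosome had a promoter peak on mm10. Its barrel consists of a ring of RNase PH-like subunits under a cap of RNA-binding subunits, and the cutting is done by DIS3 and EXOSC10. Dis3, the processive 3′-5′ nuclease of the nuclear complex, had the highest exosome signal, 344 in the optimal list, with 150 in replicate 1 and 195 in replicate 2, at chr14:99099759-99100021. Exosc10, the distributive nuclear nuclease, had a signal of 117, with 65.2 and 52.4 in replicates 1 and 2. Dis3l, the cytoplasmic relative of Dis3, had the lowest signal of all 35 genes, 22.3, with 11.03 and 10.04 in replicates 1 and 2. The 3 nucleases spanned the range of the complex. The nearest mm9 summit was 82886 bp from a Dis3l start, so Dis3l was called on mm10 alone.

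Among the cap subunits, Exosc3 had a signal of 294 (replicate 1 122.5, replicate 2 169) and Exosc1 279 (129 and 150). Exosc2, the other cap subunit, had 60.4, with 17.98 in replicate 1 and 46.9 in replicate 2. The replicates differed most here among all decay genes, with replicate 2 at 2.61 times replicate 1. The 6 ring subunits were more even, with signals from 118 to 289 and a median of 173. Exosc6 led them with 289 (118 and 168), at chr8:111056197-111056474 its summit being 3 bp upstream of the start. Exosc4 (203), Exosc9 (177), Exosc5 (170), Exosc7 (152) and Exosc8 (118) followed.

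Some exosome promoters were shared with neighbouring genes. At 5 of the 12 exosome genes (41.7%, exact interval 15.2% to 72.3%) the peak summit also lay within 1 kb of another protein-coding 5′ end, while this held for 0 of the other 23 bound decay genes (upper exact limit 14.8%). Among all bound genes the share was 23.6%, which lies inside the interval of the exosome and above the upper limit for the other decay genes. The pairs were Dis3 with Pibf1, Exosc1 with Zdhhc16, Exosc5 with Bckdha, Exosc7 with Zdhhc3 and Exosc8 with Alg5, each on opposite strands with starts 22 to 371 bp apart. The Exosc8 summit lay nearer to the start of Alg5 (28 bp) than to that of Exosc8 (203 bp), and the Exosc7 summit nearer to Zdhhc3 (321 bp) than to Exosc7 (358 bp). At the other 3 pairs the summit lay nearer to the exosome gene, by 92 bp against 114 bp at Exosc1. A peak list cannot assign such a peak to one gene of the pair. The 5 sharing exosome genes had a median signal of 170 (118 to 344) and the 7 others 177 (22.3 to 294).

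CCR4-NOT, the main deadenylase of mRNA, is built on the scaffold CNOT1. Cnot10, which with CNOT11 binds the N-terminal part of the scaffold, stood far above the rest with 341 (160 in replicate 1, 183 in replicate 2), at chr9:114640070-114640402. Cnot1 had 138 (60.3 and 79.4), Cnot11 136 (52.7 and 84.98) and Cnot3, of the NOT module, 123.1 (73.2 and 53.0). Cnot6 (100.7), Cnot4 (79.4), a ubiquitin ligase, Cnot6l (74.96) and Cnot9 (57.0) had lower signals. Cnot2, partner of CNOT3 in the NOT module, had the lowest, 29.4, with 18.3 in replicate 1 and 10 in replicate 2. It was the only bound decay gene whose peak no conservative peak overlapped. Cnot2 still counted as bound when the conservative list replaced the optimal one, through a different peak.

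CCR4-NOT has nuclease subunits of the CCR4 and CAF1 types. Both genes of the CCR4 type, Cnot6 and Cnot6l, were bound, with the summit of the strongest peak 582 and 657 bp downstream of the 5′ end. Cnot6l had a second promoter peak of nearly the same signal, 72.5, only 8 bp from its 5′ end. For Cnot6 a second RefSeq start lay 97 bp from the summit. Neither gene of the CAF1 type, Cnot7 and Cnot8, was bound at its 5′ end, although Cnot8 was bound on mm9 (288). Cnot8 had a peak of 206 at 11441 bp inside the gene, with 94.9 and 110 in replicates 1 and 2, and its summit lay 6 bp from another RefSeq start of Cnot8. Cnot7 had a single optimal peak inside the gene, 4123 bp from its 5′ end and 18 bp from the 5′ end of Vps37a. That peak had a signal of 13.1, with 9.72 in replicate 1 and no entry within 100 bp in replicate 2. On mm9 the nearest summit to any Cnot7 start was 61075 bp away.

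PAN2-PAN3 starts the removal of long tails. Pan2, its nuclease, had a signal of 50.5 (30.1 in replicate 1 and 28.9 in replicate 2). Pan3, its adaptor, was unbound at the RefSeq 5′ end, but a peak of 159 (68.8 and 89.1) lay 25 bp from a RefSeq start 3948 bp downstream, and Pan3 was bound on the mm9 list with a signal of 222, at 397 bp from the nearest GENCODE start.

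Decapping genes carried strong peaks. Dcp1b, a decapping activator, had the highest signal of all decay genes, 352 (155 in replicate 1, 198 in replicate 2), at chr6:119175081-119175339, and its paralogue Dcp1a had 316 (132 and 190). Dcp2, the decapping enzyme itself, had 218 (98.2 and 118). The 5′-3′ nucleases differed. Xrn2, the nuclear enzyme also known for transcription termination, had 179 (71.9 and 107), while Xrn1, the cytoplasmic enzyme that digests decapped mRNA, had 46.7 (18.1 and 26.6). In both replicates Xrn1 was the lowest of these 5 genes. All 5 summits lay 11 to 100 bp from the 5′ end.

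Nonsense-mediated decay genes had moderate signals. Upf1, the central helicase, led with 184 (83.7 in replicate 1, 101.4 in replicate 2), at chr8:70353274-70353450. Smg8, a regulator of the SMG1 kinase, had 170 (74.2 and 93.7). Upf2, which bridges UPF1 and UPF3 proteins, had 102 (39.7 and 62.3). Smg5 (67.0), Smg6 (62.7), the endonuclease of the pathway, and Upf3a (57.6) followed, and Upf3b, which contacts the exon junction complex, had the lowest signal, 48.3 (25.2 and 27.3). The Smg6 promoter peak had 39.3 in replicate 2 and no entry within 100 bp in replicate 1, the only one of the 35 not present in both. Its strongest relaxed entry within 1 kb in replicate 1 had 21.1. Smg6 also held 12 optimal peaks inside the gene more than 1 kb from its 5′ end, the strongest with 118.

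The kinase gene Smg1 and Smg9, a regulator of the kinase, were unbound on the optimal list. For Smg1 the nearest optimal summit was 30694 bp away, yet the conservative list held a peak of 48.5 at 844 bp from the 5′ end, replicate 1 an entry of 25.2 and replicate 2 one of 24.5, both among the strongest 29086 of their lists. The mm9 list gave 52.8, 79 bp from the GENCODE start. Smg9 had no entry within 1 kb of its 5′ end even in the relaxed lists. A peak of 311 (160 in replicate 1, 151 in replicate 2) lay 2165 bp inside the gene, at chr7:24399572-24399831 and 54 bp from another RefSeq start. On mm9 the nearest summit was 19560 bp from a Smg9 start.

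With every RefSeq start of the promoter table used, a choice made after seeing these values, 39 of 41 decay genes were bound, while 42.7% of all protein-coding genes were. The 4 genes added were Dis3l2, Cnot8, Pan3 and Smg9, and Cnot7 and Smg1 remained unbound. The Dis3l2 peak had a signal of 268 (116 in replicate 1, 150 in replicate 2) and lay 6 bp from a start 1880 bp downstream of the 5′ end. Cnot7 has no entry in that table. The 4 internal peaks had signals of 159 to 311, above the median of 97.1 of all bound genes.

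RefSeq promoters of these genes (GRCm38.p6, 250 bases before to 50 after a start, on the gene's strand) are printed because the call depended on the start or the list, and the second Cnot8 promoter was added after its values were seen. They are chr1:86703554-86703853 (plus) for the bound downstream start of Dis3l2, chr11:58092544-58092843 (plus) for the unbound 5′ end of Cnot8, chr11:58103979-58104278 (plus) for its bound downstream start, chr5:147429906-147430205 (plus) for the bound downstream start of Pan3 and chr7:118243588-118243887 (minus) for Smg1, whose table start lies 800 bp from the 5′ end used. GGAA or TTCC is in capitals.
Dis3l2, downstream start: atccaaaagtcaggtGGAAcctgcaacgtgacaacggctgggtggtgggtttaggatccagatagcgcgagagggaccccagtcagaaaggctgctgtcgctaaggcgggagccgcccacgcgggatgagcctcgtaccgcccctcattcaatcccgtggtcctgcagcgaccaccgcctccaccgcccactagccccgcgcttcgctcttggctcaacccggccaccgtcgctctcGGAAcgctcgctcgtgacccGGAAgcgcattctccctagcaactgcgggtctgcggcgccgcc
Cnot8, 5′ end: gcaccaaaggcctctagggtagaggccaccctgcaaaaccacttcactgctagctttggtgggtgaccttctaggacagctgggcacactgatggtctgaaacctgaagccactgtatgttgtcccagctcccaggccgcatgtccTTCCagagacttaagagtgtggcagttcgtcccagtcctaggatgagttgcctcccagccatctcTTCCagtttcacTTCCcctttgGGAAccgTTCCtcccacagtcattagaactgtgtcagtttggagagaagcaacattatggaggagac
Cnot8, downstream start: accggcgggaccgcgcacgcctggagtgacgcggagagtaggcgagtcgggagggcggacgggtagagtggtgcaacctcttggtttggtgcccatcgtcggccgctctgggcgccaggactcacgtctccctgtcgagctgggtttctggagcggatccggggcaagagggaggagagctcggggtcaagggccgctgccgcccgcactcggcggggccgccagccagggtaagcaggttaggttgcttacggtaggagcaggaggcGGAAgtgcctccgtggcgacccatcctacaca
Pan3, downstream start: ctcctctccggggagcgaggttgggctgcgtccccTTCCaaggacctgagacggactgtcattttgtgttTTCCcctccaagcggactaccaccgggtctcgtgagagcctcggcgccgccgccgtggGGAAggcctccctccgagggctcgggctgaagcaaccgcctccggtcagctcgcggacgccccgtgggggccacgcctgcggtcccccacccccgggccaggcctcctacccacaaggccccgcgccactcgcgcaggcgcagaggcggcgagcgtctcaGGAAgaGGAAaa
Smg1: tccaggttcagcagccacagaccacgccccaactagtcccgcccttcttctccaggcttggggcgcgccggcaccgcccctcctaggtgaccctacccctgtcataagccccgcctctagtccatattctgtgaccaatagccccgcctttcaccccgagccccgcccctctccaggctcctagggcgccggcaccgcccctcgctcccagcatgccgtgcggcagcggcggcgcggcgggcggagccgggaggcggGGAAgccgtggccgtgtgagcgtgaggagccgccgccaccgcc
The unbound Cnot8 promoter held 5 GGAA words on both strands and the bound one 1, and CCGGAAG was present in neither. Dis3l2 held 3 GGAA words, one of them within CCGGAAG, Pan3 5 and Smg1 1. Over all 17274 promoters of protein-coding genes in the table, 1 per gene, GGAA was found in 95.7% and CCGGAAG in 12.1%, with 24.2% at bound and 4.00% at unbound genes. Of the 35 decay genes in the table, 33 had GGAA and 9 had CCGGAAG, 8 of them among the 30 bound and 1 among the 5 unbound at the 5′ end. In these splits, also over all genes, the word was read at a table start, which can differ from the 5′ end where binding was called. The 1 unbound gene with CCGGAAG was Dis3l2, whose table start lay 6 bp from a peak. Pan3 and Smg9, also counted as unbound, had a peak at their table start too.

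Both replicates had entries at nearly all of these genes. Of the 35 promoter peaks, 34 had an entry within 100 bp in both relaxed lists, while 93.5% of all bound genes did. Optimal peaks were themselves kept by replicate agreement, so an entry in both lists was largely set in advance. Replicate 2 had the higher signal at 24 of the 34 genes and replicate 1 at 10. The ratio of replicate 2 to replicate 1 had a median of 1.26 (range 0.548 at Cnot2 to 2.61 at Exosc2) and of 1.28 over all bound genes, on scales that can differ between the lists.

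**Figure D3:**
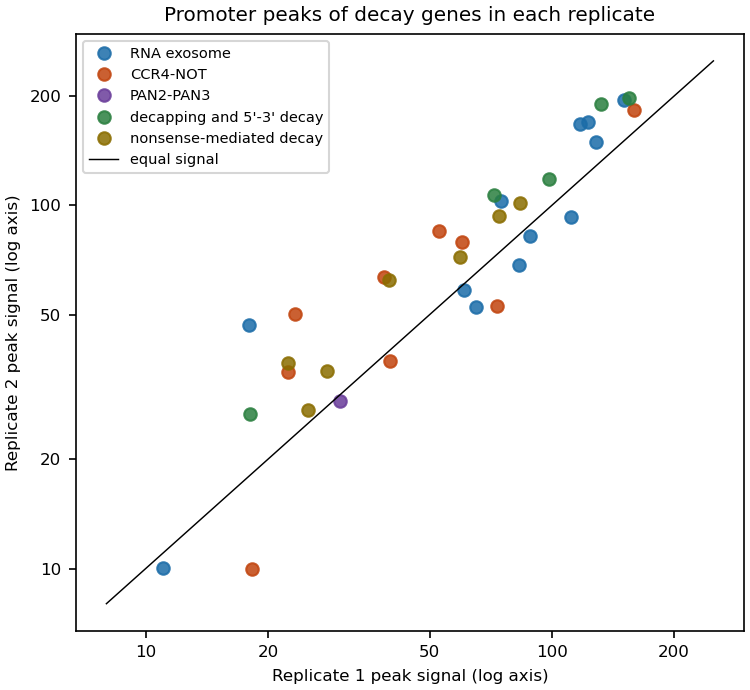
Signal of each promoter peak in replicate 1 (x axis) and replicate 2 (y axis), both on log axes, for the 34 decay genes with an entry in both; the line marks equal signal. Most points, 24 of 34, lie above the line, and Exosc2 lies farthest above it at 2.61 times.

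Summits lay close to the start. The median distance from the 5′ end was 56 bp for the bound decay genes and 85 bp for all bound genes, and 25 of 35 lay within 200 bp, while 70.3% of all bound genes did. The summit lay downstream of the 5′ end at 12 of the 35 genes and upstream at 23, while 45.7% of all bound genes had it downstream. Distal peaks, with a summit 2 to 50 kb away and farther than 2 kb from any gene start used, were found at 26 of 41 decay genes (63.4%) and at 50.9% of all protein-coding genes. Only the RefSeq 5′ ends served as starts here, so the peaks at downstream starts of Cnot8, Pan3 and Smg9 count as distal. By complex the counts were 8 of 12 for the exosome, 8 of 11 for CCR4-NOT, 2 of 2 for PAN2-PAN3, 3 of 5 for decapping and 5′-3′ decay, 5 of 10 for nonsense-mediated decay and 0 for Dis3l2.

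**Figure D4:**
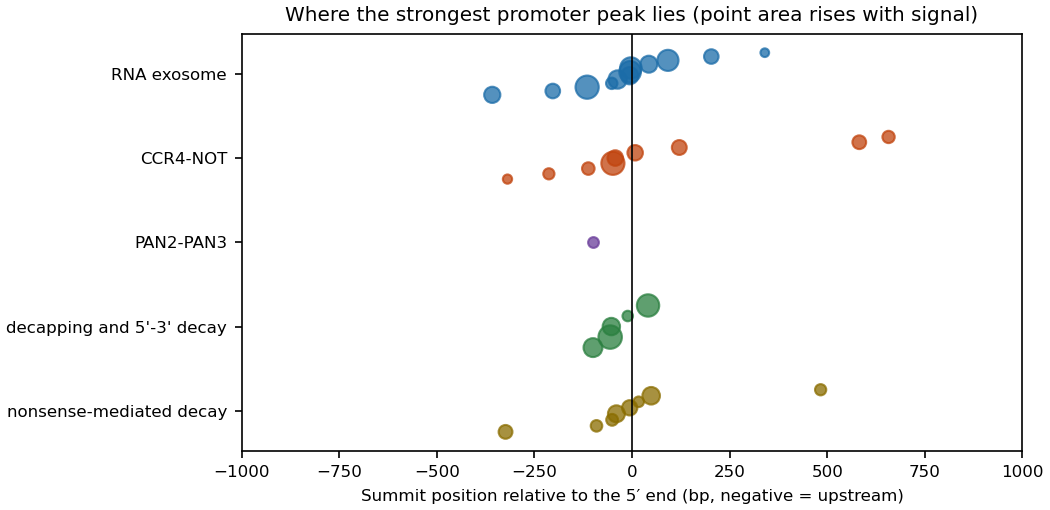
Position of the summit of the strongest promoter peak relative to the RefSeq 5′ end (bp, negative is upstream) for the 35 bound decay genes, by complex, with point area rising with signal. Decapping genes lie within 100 bp of the 5′ end, and the farthest points are the strongest peaks of Cnot6 and Cnot6l at 582 and 657 bp.

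The rank of the peaks was broadly similar on both builds, which rest on the same libraries. Dcp1b stood at the 92.2nd percentile of all bound genes on the optimal list and at the 93.7th on the mm9 list, Dis3 at the 91.5th and 88.8th, Upf1 at the 72.2nd and 70.2nd, Xrn1 at the 24.8th and 15.8th, and Cnot2 at the 10.3rd and 7.92nd. Pan2 fell from the 27.7th to the 12.3rd. Smg6 moved most among the genes labelled in the plot of percentiles, at the 34.7th and 54.8th. Its strongest mm9 promoter peak (161) lay 916 bp from the nearest start, while another mm9 peak, of 87.5, lay 63 bp from a start.

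**Figure D5:**
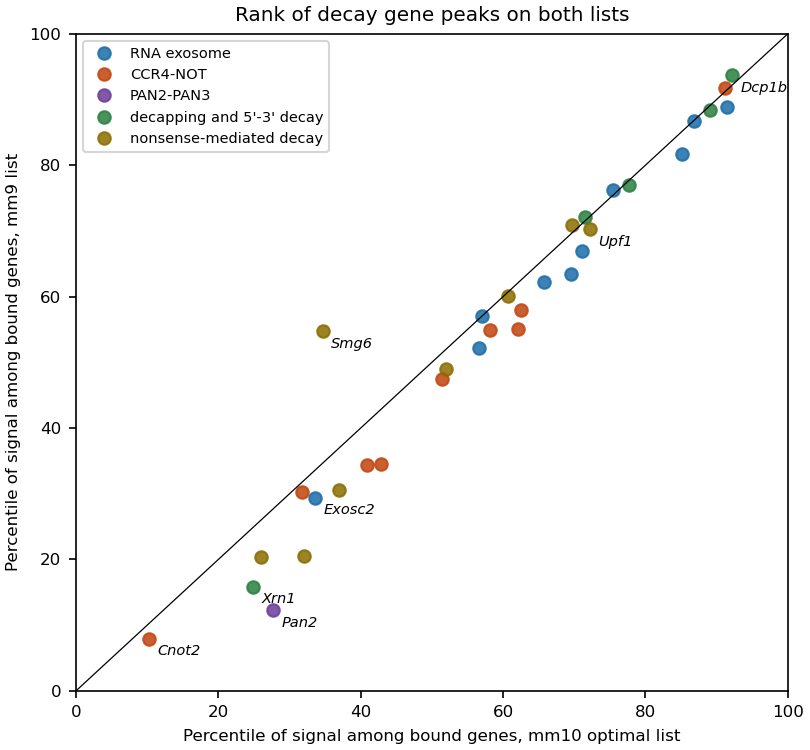
Percentile of promoter peak signal among all bound genes on the mm10 optimal list (x axis) and on the mm9 list (y axis) for the 33 decay genes bound on both; the line marks equal percentiles. Points run along the line from Cnot2 at 10.3 and 7.92 to Dcp1b at 92.2 and 93.7, with Smg6 above and Pan2 below it.

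Promoters of decay genes had more CpG than those of all genes. In 1 kb around the outermost mm9 start, the ratio of observed to expected CpG had a median of 0.82 over the 40 decay genes (0.10 to 1.10) and of 0.55 over all protein-coding genes. It was 0.75 over genes bound on mm9 and 0.33 over unbound genes. Among genes between 0.70 and 0.86, the middle range of the decay genes, 18 of 20 decay genes (90.0%) and 63.6% of all 4939 genes were bound. The part of CpG content in the share of bound decay genes was not tested beyond these values. Cnot7, unbound on both lists, had 0.26, while Smg9 had 0.77 and Dis3l 0.81. The lowest value, 0.10, was that of Cnot6l, which was bound on both lists. The ratio was taken at the outermost start alone, while an mm9 gene was called bound at any of its starts.

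Other factors of RNA decay, from a list of partners of these complexes, were bound at 47 of 53 genes (88.7%, exact interval 77.0% to 95.7%), beside the 39.5% of all genes. Cofactors of the exosome were bound at 13 of 13 genes, activators of decapping at 14 of 15, exon junction and nonsense-mediated decay partners at 9 of 10 and deadenylation partners at 11 of 15. The strongest were Skiv2l, the helicase of the SKI complex that feeds mRNA to the cytoplasmic exosome (546), Tnrc6b, a scaffold of microRNA silencing (468), Parn, a poly(A) nuclease (448), and Gspt1, the release factor eRF3 (348). The median signal over the bound partners was 116, beside 97.1 for all bound genes. By list it was 174 for exon junction and nonsense-mediated decay partners, 128 for decapping activators, 84.5 for exosome cofactors and 51.55 for deadenylation partners. Skiv2l shares its peak with the neighbouring gene Nelfe, and Gspt1 with LOC115488671. Nudt16, Gspt2, Pabpc1, Tnrc6a and Zfp36l1 were among those with no peak at the 5′ end used.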

How the data were processed

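ELF1 ChIP-seq of CH12.LX cells was used as deposited peak lists from 2 biological replicates. Per the deposited README text, the authors made a relaxed list from each replicate's mm10 alignments and a control, and from these the optimal and conservative lists, kept by the irreproducible discovery rate, and a list on mm9. Neither aligner nor peak caller is named in the sources used here. The deposited signal value of a peak (column 7) is the authors' own. It was ranked within a list, and the replicates' values were also set side by side as a ratio, as a description.

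Promoters were the 5′ ends of RefSeq protein-coding genes (GRCm38.p6), with strand from the RefSeq promoter table for 17274 genes and from GENCODE M1 by symbol for 4044. Genes without strand or on chromosomes without peaks were left out. The mm9 list was read against all GENCODE M1 starts and the NCBIM37 sequence, and coordinates were not moved between builds. Of the 41 decay genes, 35 are in the RefSeq promoter table. A replicate entry was matched to a peak within 100 bp. Shares have 95% exact (Clopper-Pearson) intervals. With 1 group, no test between samples was possible and none was made. Values are given in full for the 4 strongest and the weakest bound genes of each complex, every unbound gene and every gene called on one build only. Single values of 2 genes in these lists are not reported here, while counts and medians include them. Mpp6 was left out of the partner list, since its mouse symbol names another gene. The members and lists were chosen with earlier results of these data known. The promoter call was checked with peaks planted near a sample of isolated starts and was right for 17484 of 17484 genes. Most of these genes had no planted peak. Shared promoters, several peaks at a promoter and the choice of start were not covered by this check. Alternatives changed the window, list, peak strength, replicate, overlap, symbol rule and start sites. Python 3.11.15, pandas 2.3.3, numpy 2.4.6, scipy 1.17.1 and matplotlib 3.10.9 were used.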

Additional observations from a re-analysis of the deposited data

How the results depend on the processing

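Of 99 values recomputed under alternatives, 6 moved and 93 did not. A count was said to move only if it changed by a ratio of more than 1.5. Smaller changes are therefore among the 93, such as CCGGAAG at 9 decay gene peaks within 50 bp and 6 within 25 bp. The partner list, bound at 47 of 53 genes, counted 42 with a 500 bp window, 48 with 2 kb and 37 in the stronger 50% of peaks. The bound decay genes numbered 34 of 41 with a 500 bp window, 36 with 2 kb, 36 on the conservative list and 33 in the stronger 50% of peaks. Over all protein-coding genes the shares bound were 36.3%, 42.4%, 38.9% and 31.8% in that order. When each replicate was left out, 35 to 36 decay genes and 39.9% to 40.2% of all genes were bound. Here the strongest 29086 entries of the other replicate's relaxed list were used, without new peak calling. Leaving out genes that share a peak left 7 of 7 exosome genes. Dis3l2 counted 1 with the 2 kb window and 1 with all RefSeq starts, which also gave 2 for PAN2-PAN3. Requiring the symbol to end after each family number left 3 of 3 genes in decapping and 5′-3′ decay. The median percentile of bound decay genes, 60.7, was 53.0 in the stronger 50% of peaks and 58.2 to 63.2 with each replicate left out. With each replicate left out, the exosome counted 11 to 12, CCR4-NOT 9, PAN2-PAN3 1, decapping and 5′-3′ decay 5, nonsense-mediated decay 9, Dis3l2 0 and the partner list 45 to 46. Smg1 was gained without either replicate, and Dis3l was lost without replicate 1. Over 8 alternatives of list, window and start, 32 decay genes were bound in each and Cnot7 in none. No paired analysis was possible because there is 1 group. Weak peaks such as Dis3l and Cnot2, both lost in the stronger 50%, are the least certain calls, and the depth behind them is unknown.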
